A study of Homo sapiens with 15 samples.

Results

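The 10 nuclear genes described here encode the core factors that transcribe, process, stabilise and degrade mitochondrial RNA: POLRMT, TFAM, TFB2M, TEFM, LRPPRC, SLIRP, MTPAP, PNPT1, ELAC2 and TRMT10C. They were chosen by function, with earlier results of these data known, and taken by gene symbol from the 60107 genes listed for each library. Of the 10, 9 were among the 10495 genes with enough reads to be tested. The cells were MIA PaCa-2, an established human pancreatic carcinoma line, and total RNA was sequenced from 15 libraries in 5 groups of 3. One group received vehicle, and the others received Lys05, BAQ12, BAQ13 or BAQ12O at 5 µM for 24 h. Lys05 is a dimeric aminoquinoline that inhibits autophagy in the lysosome. BAQ12 and BAQ13 join a Lys05-type bisaminoquinoline to a lysosomotropic detergent, assemble into nanoparticles, and differ from each other by a methylene unit. BAQ12O is known here only by its code name. No gene was edited and no allele was introduced in any group. The labels do not say whether the 3 libraries of a group came from separate cultures, so that the p-values measure the spread between these libraries, which may be technical.

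Mitochondrial DNA is read by a single-subunit RNA polymerase into long transcripts of the heavy and the light strand, which carry tRNAs between most of the mRNAs. These transcripts are cut at the tRNA ends, the mRNAs are polyadenylated and held by RNA-binding proteins, and surplus or antisense RNA is removed by a mitochondrial nuclease. All proteins of this pathway are encoded in the nucleus and imported, so that their own mRNAs are made and turned over outside the mitochondrion.

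The values are normalised read counts, which are the reads of a gene scaled by a size factor for each library. Between 1586566 and 2500551 reads per library fell on genes, and 3 reads, the floor of detection used here, corresponded to normalised counts of 2.49 to 4.14. The epithelial keratins KRT8, KRT18 and KRT19 had 145 to 1168 reads in every library, whereas CDH1, EPCAM and KRT7 had at most 5, and markers of leukocytes, endothelium, fibroblasts, islets and acini had at most 6. One library stood apart from its group. In BAQ12 replicate 3, 12.5% of the tested genes lay more than 1 log2 unit from the mean of the other BAQ12 libraries, against 1.01% to 3.80% in the other 14 libraries, and many of the values below are also given without it.

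The promoters of some genes of this kind are a known meeting point of the nuclear respiratory factors NRF1 and GABP, which is why start regions of members are shown. In the RefSeq promoter table (GRCh38.p14; 250 bases before to 50 after the annotated start), all 10 members were found. The NRF1 core GCGCANGCG, searched on both strands, occurred in 4 of the 10 members and in 8.05% of all 27305 promoters. The windows below run along the strand of the gene, end before the start site of RefSeq at the latest, and carry the match in capitals. The gene bounds given further below are those of GENCODE 29, which place the outer end of these 4 genes farther upstream, so that all 4 windows lie within them.
POLRMT (chr19:633538-633581, minus strand): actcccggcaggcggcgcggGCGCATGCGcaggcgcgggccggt
TFAM (chr10:58385328-58385376, plus strand): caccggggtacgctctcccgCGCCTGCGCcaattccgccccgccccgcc
TFB2M (chr1:246566262-246566297, minus strand): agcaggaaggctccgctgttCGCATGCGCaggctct
MTPAP (chr10:30349319-30349367, minus strand): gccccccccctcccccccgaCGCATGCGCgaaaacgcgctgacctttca

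The POLRMT window held 3 overlapping matches, of which the first is marked, and they began 24, 23 and 18 bases before the start site. The single matches of TFB2M, TFAM and MTPAP began 16, 62 and 69 bases before it. The ETS core CCGGAAG, the type of site bound by GABP, occurred on either strand in POLRMT, TEFM, SLIRP, ELAC2 and TRMT10C, 5 of the 10 members against 10.7% of all promoters. GGGCGG, the SP1 core, was present in 6 members and in 44.6% of all promoters. AAGATGGCG, the YY1 core, occurred in SLIRP alone among the members and in 1.85% of all promoters, and TGACGTCA, the CREB site, in none of the members and in 1.98%. POLRMT was the member with NRF1, ETS and SP1 letters together. These matches describe the letters in the windows and do not show that a factor was bound in these cells.

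No tested mRNA of these mitochondrial RNA factors passed the test under any of the 4 agents. PNPT1, which encodes a mitochondrial RNA-degrading enzyme, was lower in each of the 12 treated libraries than in any vehicle library. On the log2 scale of the fit, SLIRP, LRPPRC, TFAM and TRMT10C were lower in every treated group, by 5.32% to 21.6%. Without BAQ12 replicate 3, the log2 differences of SLIRP and LRPPRC with BAQ12 were only -0.08 and -0.02. TEFM, a weakly expressed gene, was also lower in every treated group, with its lowest levels with BAQ12 and BAQ13. The count past an adjusted p-value of 0.05 against vehicle was 0 of 9 for each agent by limma, with Benjamini-Hochberg adjustment over 10495 genes, and also by edgeR's quasi-likelihood test and DESeq2. In the same limma comparisons, the share of all tested genes that passed was 0.238% with Lys05, 0.981% with BAQ12, 5.77% with BAQ13 and 1.48% with BAQ12O, so that fewer than 1 call among 9 genes would match the background in each. At an unadjusted p-value under 0.05, limma found 0 members with Lys05, 4 with BAQ12, 3 with BAQ13 and 2 with BAQ12O. edgeR found 0, 2, 4 and 2 members and DESeq2 0, 2, 2 and 2 at that level. By limma, the background shares at an unadjusted p-value under 0.05 were 4.98%, 11.8%, 19.4% and 12.8% of all tested genes. Such shares by edgeR and DESeq2 are not given here, so that their member counts have no background of their own. The limma counts depended on BAQ12 replicate 3. With it left out, limma found 0, 1, 5 and 4 members at that level, where 7.62%, 9.23%, 26.4% and 19.1% of all tested genes passed. The single member with BAQ12 was then PNPT1, and those with BAQ13 were TFAM, TEFM, LRPPRC, SLIRP and PNPT1. RNA was taken from whole cultures, in which fewer cells of a kind and less RNA per cell cannot be told apart.

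**Figure D1:**
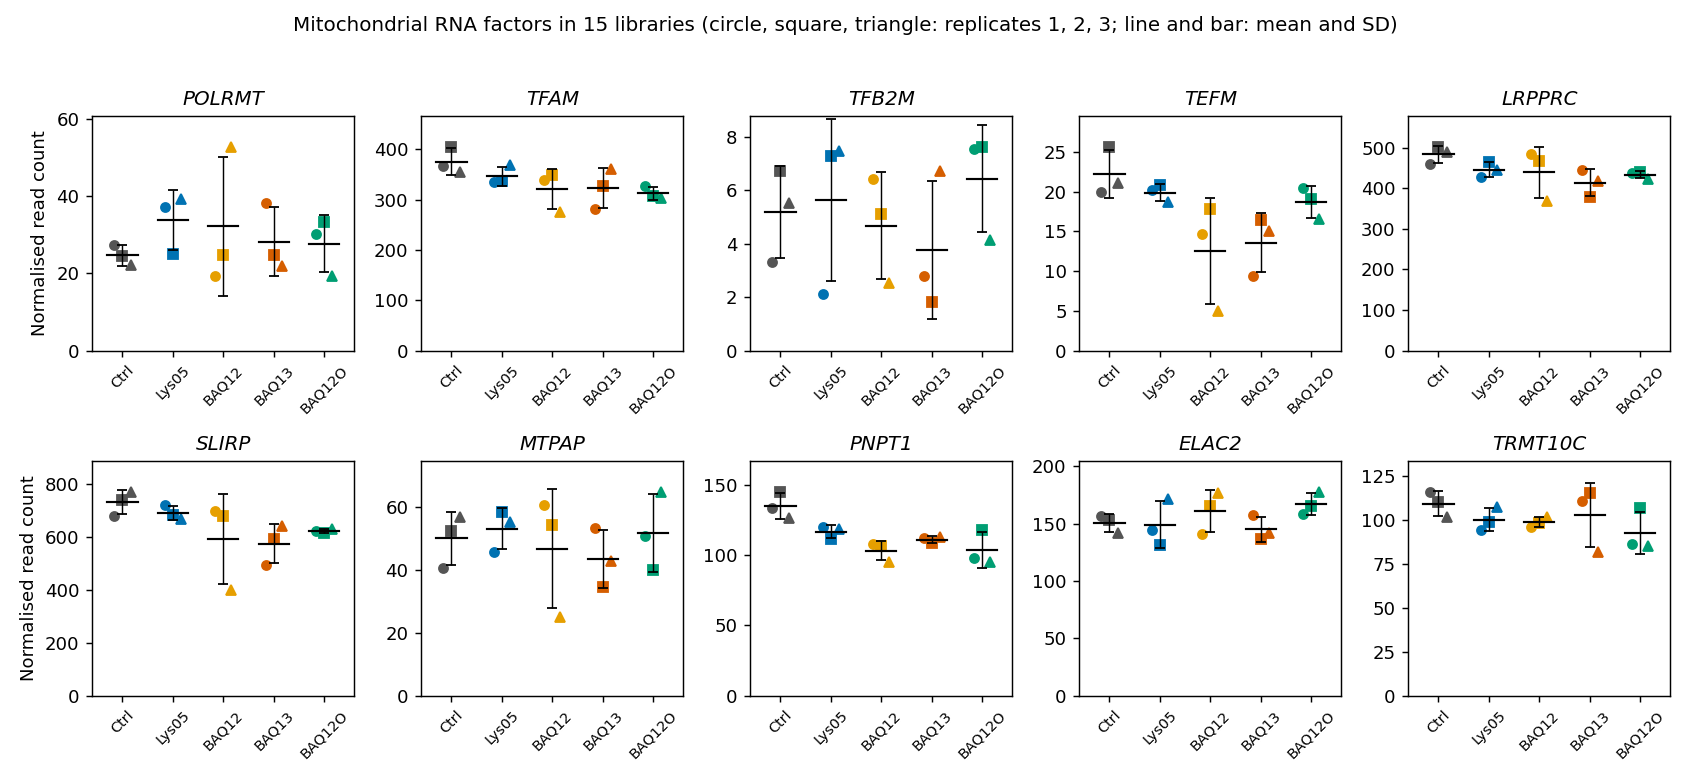
Normalised read counts (vertical axes, each starting at 0) of the 10 members in the 5 groups (horizontal axes), with circles, squares and triangles for replicates 1, 2 and 3 and a line and bar for the mean and SD of 3 libraries. PNPT1 spans 127 to 145 with vehicle and 95.1 to 120.3 in the 12 treated libraries, and the triangle of BAQ12 lies far from the other BAQ12 points for POLRMT, TEFM, SLIRP and MTPAP.

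POLRMT encodes the mitochondrial RNA polymerase itself (ENSG00000099821; chromosome 19, 617224 to 633604, minus strand, GRCh38). Its normalised counts were 27.4, 24.6 and 22.0 with vehicle and 37.3, 25.0 and 39.2 with Lys05. With BAQ12 they were 19.3, 24.7 and 52.8, with BAQ13 38.3, 24.6 and 21.8, and with BAQ12O 30.2, 33.4 and 19.3. All 4 treated groups overlapped the vehicle group, and the highest value of all was that of BAQ12 replicate 3. The log2 fold changes were 0.42, 0.25, 0.15 and 0.13 with Lys05, BAQ12, BAQ13 and BAQ12O (standard error 0.32 each, on the log2(count + 1) scale), with adjusted p-values of 0.76 to 1.0 by limma. Without BAQ12 replicate 3, the value with BAQ12 turned to -0.17 (standard error 0.27). POLRMT rested on 14 to 42 reads per library, and its 95% confidence intervals allowed changes from -0.55 to 1.09 log2 units over the 4 comparisons.

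TFAM packages mitochondrial DNA and bends the promoters for the polymerase (ENSG00000108064; chromosome 10, 58385022 to 58399221, plus strand). Its normalised counts were 366, 405 and 355 with vehicle. They were 334, 336 and 369 with Lys05, 338, 349 and 275 with BAQ12, 281, 327 and 361 with BAQ13, and 327, 307 and 303 with BAQ12O. Every BAQ12 and BAQ12O library lay below the lowest vehicle library, whereas 1 Lys05 and 1 BAQ13 library reached into the vehicle range. The mean was 376 ± 26.3 (SD, n = 3) with vehicle and 312 ± 12.5 (SD, n = 3) with BAQ12O, a log2 difference of -0.26 (standard error 0.11) with an unadjusted p of 0.026 and an adjusted p of 0.29 by limma. The differences were -0.12 with Lys05, -0.23 with BAQ12 and -0.22 with BAQ13, with adjusted p-values of 1.0, 0.42 and 0.27 by limma. That with BAQ12 was -0.13 (unadjusted p = 0.21 by limma) without BAQ12 replicate 3. In a fit of only the 6 libraries compared, TFAM with BAQ12O had an adjusted p of 0.025 by limma, where 8.30% of all genes passed.

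TFB2M helps the polymerase to open the promoter (ENSG00000162851; chromosome 1, 246540560 to 246566324, minus strand). It had 2 to 8 reads in every library and was not tested. The 3 vehicle libraries held 16 TFB2M reads in all, with an exact 95% Poisson interval of 9.15 to 26.0, and the treated groups held 17, 15, 13 and 18 in the order Lys05, BAQ12, BAQ13 and BAQ12O. The intervals of all 5 groups overlapped. These totals were not scaled for the depth of the libraries, and overlap of intervals is not a test of a difference. Such intervals cover counting error only.

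TEFM keeps the polymerase on the template during elongation (ENSG00000172171; chromosome 17, 30897336 to 30906820, minus strand). The vehicle libraries had normalised counts of 19.9, 25.7 and 21.1. The values were 20.2, 20.8 and 18.7 with Lys05, 14.7, 17.9 and 5.02 with BAQ12, 9.33, 16.4 and 15.1 with BAQ13, and 20.5, 19.1 and 16.5 with BAQ12O. Every BAQ12 and BAQ13 library was below every vehicle and every Lys05 library. The log2 difference from vehicle was -0.93 with BAQ12 (standard error 0.34, unadjusted p = 0.014, adjusted p = 0.29 by limma) and -0.70 with BAQ13 (unadjusted p = 0.055, adjusted p = 0.27 by limma). With Lys05 and BAQ12O it was -0.15 and -0.24. Only 4 reads stood behind the value of BAQ12 replicate 3, and without that library the difference with BAQ12 was -0.43 (standard error 0.28, adjusted p = 0.74 by limma). TEFM had 4 to 24 reads per library and overlaps ADAP2 on the opposite strand, which had 27 to 61 reads. Whether the reads were counted by strand is not given in the sources used here, so that reads of the overlap cannot be told apart.

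LRPPRC binds mitochondrial mRNAs and protects them from decay (ENSG00000138095; chromosome 2, 43886508 to 43996005, minus strand). Its normalised counts were 459, 502 and 488 with vehicle and 427, 466 and 446 with Lys05. They were 484, 468 and 368 with BAQ12, 444, 377 and 419 with BAQ13, and 438, 440.5 and 423 with BAQ12O. Every BAQ13 and BAQ12O library was below every vehicle library, and the other groups overlapped it. The mean was 414 ± 33.8 (SD, n = 3) with BAQ13 against 483 ± 22.1 (SD, n = 3) with vehicle, a log2 difference of -0.23 (standard error 0.10, unadjusted p = 0.035, adjusted p = 0.21 by limma). The differences with Lys05, BAQ12 and BAQ12O were -0.11, -0.14 and -0.15, with adjusted p-values of 0.55 to 1.0 by limma. That with BAQ12 was -0.02 (unadjusted p = 0.80 by limma) without BAQ12 replicate 3. When BAQ12 replicate 3 was left out of the fit, which narrows the shared spread, LRPPRC passed with BAQ13 (adjusted p = 0.043 by limma), as did 13.7% of all tested genes.

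SLIRP is the small partner of LRPPRC in the same complex (ENSG00000119705; chromosome 14, 77708071 to 77761104, plus strand). Its normalised counts were 682, 740.3 and 771 with vehicle and 722, 685 and 667 with Lys05. With BAQ12 they were 699, 681 and 398, with BAQ13 494, 592 and 640.3, and with BAQ12O 624, 614 and 631. All BAQ13 and BAQ12O libraries lay below all vehicle libraries, and BAQ12 replicate 3 was the lowest of the 15. The mean with BAQ13 was 575 ± 74.7 (SD, n = 3) against 731 ± 45.4 (SD, n = 3) with vehicle, a log2 difference of -0.35 (standard error 0.15, unadjusted p = 0.036, adjusted p = 0.22 by limma). With BAQ12 the difference was also -0.35, but it was -0.08 without BAQ12 replicate 3 (adjusted p = 0.87 by limma). With BAQ12O it was -0.23, with adjusted p = 0.58, and with Lys05 -0.08, with adjusted p = 1.0 by limma.

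The call for SLIRP with BAQ13 depended on a library of another group. Without BAQ12 replicate 3, its difference of -0.35 had a standard error of 0.08 and an adjusted p of 0.0027 by limma, again beside 13.7% of all tested genes that passed. In the fit of the 6 vehicle and BAQ13 libraries alone it had an adjusted p of 0.031 by limma, where 9.02% of all genes passed. With BAQ12O, the fit of 6 libraries gave SLIRP an adjusted p of 0.021 by limma. SLIRP overlaps SNW1 on the opposite strand, which had 254 to 535 reads per library, and the part of these reads in the SLIRP counts cannot be told apart.

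MTPAP adds the poly(A) tails of mitochondrial mRNAs (ENSG00000107951; chromosome 10, 30309801 to 30374448, minus strand). The normalised counts were 40.7, 52.5 and 56.9 with vehicle and 45.8, 58.3 and 55.1 with Lys05. They were 60.5, 54.4 and 25.1 with BAQ12, 53.2, 34.6 and 42.7 with BAQ13, and 50.7, 40.0 and 64.8 with BAQ12O. Every treated group overlapped the vehicle group, and the lowest of all 15 values was again that of BAQ12 replicate 3. The log2 differences were 0.09, -0.18, -0.20 and 0.04 with Lys05, BAQ12, BAQ13 and BAQ12O (standard error 0.27 each), with adjusted p-values of 0.75 to 1.0 by limma. The sign with BAQ12 turned without BAQ12 replicate 3, to 0.21.

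PNPT1 encodes polynucleotide phosphorylase, the nuclease that degrades mitochondrial RNA together with the helicase SUPV3L1 (ENSG00000138035; chromosome 2, 55634265 to 55693910, minus strand). Vehicle libraries had normalised counts of 134, 145 and 127. The values were 120.3, 111 and 119 with Lys05, 108, 106 and 95.5 with BAQ12, 112, 108 and 113 with BAQ13, and 98.1, 118 and 95.1 with BAQ12O. All 12 treated libraries lay below the lowest vehicle library, a pattern that 1.38% of the 10495 tested genes had. The 4 comparisons share the same 3 vehicle libraries, so that they are not independent of each other. The mean was 135 ± 9.33 (SD, n = 3) with vehicle and 103 ± 6.87 (SD, n = 3) with BAQ12, a log2 difference of -0.38 (standard error 0.11, unadjusted p = 0.0031, adjusted p = 0.15 by limma). BAQ12O gave 104 ± 12.6 (SD, n = 3) and the same difference of -0.38 (unadjusted p = 0.0033, adjusted p = 0.11 by limma). The differences with BAQ13 and Lys05 were -0.28 and -0.21, with adjusted p-values of 0.17 and 1.0 by limma.

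PNPT1 had the smallest p-value of the members for any difference among the 5 groups (limma F test, unadjusted p = 0.018, adjusted p = 0.21), and it was the only member with an unadjusted p under 0.05 there. Over the other 14 libraries, SLIRP had the smallest (unadjusted p = 0.0011), followed by PNPT1 (unadjusted p = 0.020) and LRPPRC (unadjusted p = 0.040), and SLIRP passed the adjusted F test, as did 10.5% of all tested genes. Over all 15 libraries, 3.03% of the tested genes passed that F test at an adjusted p-value of 0.05. PNPT1 with BAQ12O reached an adjusted p of 0.028 by limma in the fit of 6 libraries and 0.041 by limma without BAQ12 replicate 3, where 8.30% and 4.99% of all genes passed. Its difference with BAQ12 was -0.33 without that replicate (adjusted p = 0.32 by limma). The pseudogene copies PNPT1P1 and PNPT1P2 had 0 reads in every library.

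ELAC2 encodes the RNase Z that cuts precursor tRNAs at their 3′ ends, in mitochondria and the nucleus (ENSG00000006744; chromosome 17, 12992391 to 13018187, minus strand). It had 157, 153 and 142 normalised counts with vehicle and 158, 166 and 178 with BAQ12O. The BAQ12O libraries all lay above the vehicle libraries, and no other member had such a group. Its log2 difference there was 0.15, with a standard error of 0.12 and an adjusted p of 0.64 by limma. The other groups overlapped the vehicle group, at 145, 131 and 172 with Lys05, 141, 166 and 177 with BAQ12, and 158, 137 and 142 with BAQ13. Their log2 differences were -0.02, 0.09 and -0.05, and that with BAQ12 was 0.02 without BAQ12 replicate 3.

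TRMT10C is a subunit of mitochondrial RNase P, which cuts tRNAs at their 5′ ends (ENSG00000174173; chromosome 3, 101561862 to 101566446, plus strand). Its normalised counts were 116, 110.5 and 102 with vehicle and 94.8, 98.9 and 107 with Lys05. They were 96.3, 98.6 and 102 with BAQ12, 111, 116 and 82.1 with BAQ13, and 86.2, 107 and 85.5 with BAQ12O. The BAQ12 libraries lay just below the lowest vehicle value, and the other groups overlapped the vehicle group. The log2 differences were -0.13, -0.14, -0.10 and -0.24 with Lys05, BAQ12, BAQ13 and BAQ12O (standard error 0.14 each), with adjusted p-values of 0.48 to 1.0 by limma.

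**Figure D2:**
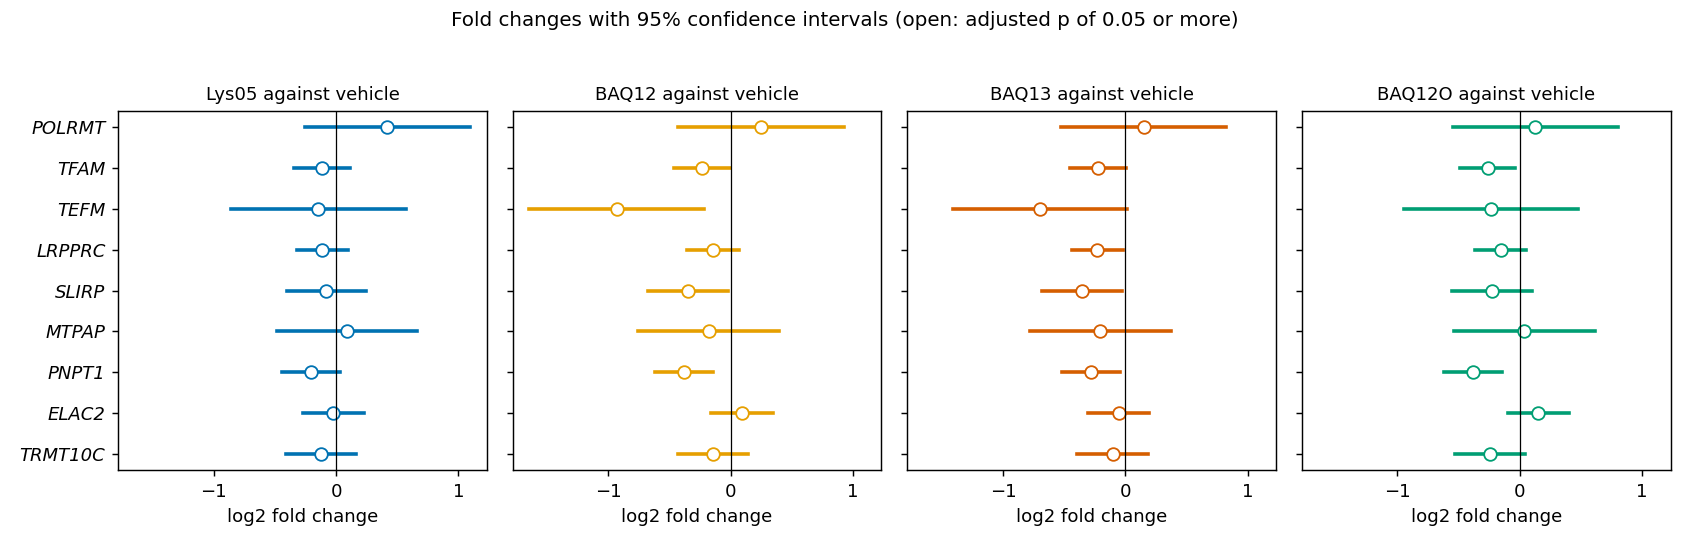
Log2 fold changes against vehicle (horizontal axes) of the 9 tested members (vertical axis) by agent, with limma's 95% confidence intervals as lines and open circles for an adjusted p of 0.05 or more. All 36 circles are open, and TEFM with BAQ12 at -0.93 and POLRMT with Lys05 at 0.42 are the extreme values.

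Over the 9 tested members, the median log2 difference from vehicle was -0.11 with Lys05, -0.18 with BAQ12, -0.22 with BAQ13 and -0.23 with BAQ12O. The median with BAQ12 was -0.13 without its replicate 3. The median over all 10495 tested genes was within 0.01 of 0 in each. Of the 9 members, 2, 2, 1 and 3 had values above 0 in that order, against 50.4%, 49.8%, 49.5% and 49.5% of all tested genes. Members with every treated library below every vehicle library numbered 1, 4, 4 and 4 of 9, against 7.37%, 7.61%, 14.4% and 13.3% of all tested genes, and members with every treated library above numbered 0, 0, 0 and 1, against 8.24%, 7.75%, 14.5% and 12.5%. No count over these members was tested. A single value of the median precision had a 95% confidence interval of ±0.29 log2 units.

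Among the RNAs on which these factors act, the summed heavy-strand mRNAs, MT-ND6 and MT-RNR1 passed the test with every agent. Mitochondrial genes have near-identical copies in the nuclear genome and, without known strand, reads of MT-ND6 and of heavy-strand RNA opposite to it cannot be told apart. The summed normalised count of the 12 heavy-strand mRNAs was 124905 ± 2243 (SD, n = 3) with vehicle, 27504 ± 907 (SD, n = 3) with Lys05, 38588 ± 6102 (SD, n = 3) with BAQ12, 47304 ± 3067 (SD, n = 3) with BAQ13, and with BAQ12O 79943 ± 5823 (SD, n = 3). The log2 fold changes of these sums were -2.18, -1.71, -1.40 and -0.65 in that order, and limma gave adjusted p-values of 5.5e-11, 3.3e-09, 3.0e-08 and 0.0014. The light-strand mRNA MT-ND6 rose in the same comparisons, by 1.08, 1.10, 0.99 and 0.67 log2 units, with adjusted p-values of 4.6e-05 to 0.0080 by limma. With BAQ12O it had an adjusted p of 0.0574 without vehicle replicate 2 and 0.0623 without vehicle replicate 3 by limma. One by one, 12 of the 12 heavy-strand mRNAs passed as lower with Lys05, BAQ12 and BAQ13, and 9 with BAQ12O. The small rRNA MT-RNR1 rose with every agent, by 0.81, 0.71, 0.58 and 0.68 log2 units (adjusted p = 0.0011, 0.0023, 0.0044 and 0.0033 by limma). The large rRNA MT-RNR2 lay 0.26 to 0.34 log2 units above vehicle and did not pass (adjusted p-values of 0.11 to 0.83 by limma), although every treated library was above every vehicle library for both rRNAs. When BAQ12 replicate 3 was left out, MT-RNR2 passed with Lys05, BAQ13 and BAQ12O (adjusted p = 0.0487, 0.0052 and 0.00075 by limma) and not with BAQ12 (adjusted p = 0.43 by limma). The sum of both rRNAs passed with all 4 agents in that fit, with BAQ12 at an adjusted p of 0.0499 by limma, against adjusted p-values of 0.22, 0.089, 0.064 and 0.045 by limma over all libraries. No member's 95% confidence interval reached as low as the heavy-strand value with Lys05 or BAQ12, and that of TEFM alone did with BAQ13 and with BAQ12O. Set against the interval of the heavy-strand value itself, 0, 1, 1 and 7 of the 9 member intervals overlapped it with Lys05, BAQ12, BAQ13 and BAQ12O. With BAQ12O the heavy-strand interval was -0.85 to -0.44. The lowest bounds over the members, all of TEFM, were -0.86, -1.65, -1.41 and -0.95 in the order Lys05, BAQ12, BAQ13 and BAQ12O.

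**Figure D3:**
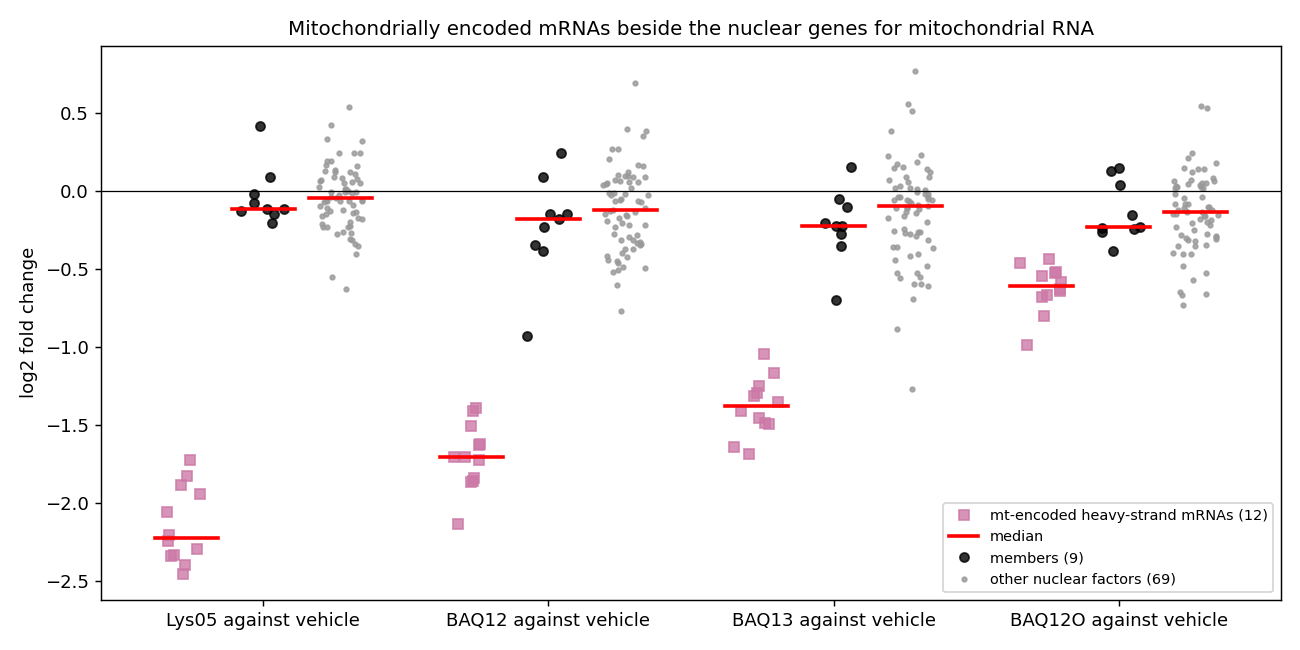
Log2 fold change against vehicle (vertical axis) by agent (horizontal axis) for the 12 mitochondrially encoded heavy-strand mRNAs, the 9 tested members and 69 other nuclear genes for mitochondrial RNA and DNA, with 1 point per gene and a red line at each median. The medians of the members lie at -0.11 to -0.23, close to those of the other nuclear genes at -0.05 to -0.13, and the heavy-strand mRNAs lie at -2.23 with Lys05 and -0.61 with BAQ12O.

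The agents were also compared with each other, in 6 pairs at the matched dose and time. None of the 9 members passed an adjusted p-value of 0.05 in any pair by limma, edgeR or DESeq2. The share of all tested genes that passed by limma was 0.162% for BAQ12, 2.66% for BAQ13 and 0.248% for BAQ12O against Lys05, 0.562% for BAQ13 and 0.229% for BAQ12O against BAQ12, and 1.39% for BAQ12O against BAQ13. At an unadjusted p under 0.05, limma found 1 member in 1 pair, TEFM between BAQ12 and Lys05 (log2 difference -0.79, standard error 0.34, unadjusted p = 0.033, adjusted p = 0.67 by limma), and edgeR and DESeq2 found 0 in every pair. By limma, the background shares at that level against Lys05 were 7.17% of all tested genes for BAQ12, 14.6% for BAQ13 and 7.36% for BAQ12O. They were 8.27% for BAQ13 and 8.38% for BAQ12O against BAQ12, and 11.2% for BAQ12O against BAQ13. TEFM moved to -0.28 in that pair without BAQ12 replicate 3. Without that library, limma found 1 member at that level between BAQ12 and Lys05 (POLRMT, -0.59), 2 between BAQ13 and Lys05 (TEFM and SLIRP), 2 between BAQ13 and BAQ12 (LRPPRC and SLIRP) and 0 in the other pairs, where 5.27%, 21.2% and 15.8% of all tested genes passed in the first 3. TEFM and PNPT1 were lower in every BAQ12 library than in every Lys05 library, as were 5.47% of all tested genes. BAQ13 and BAQ12, which differ by the methylene unit, differed by -0.15 to 0.23 log2 units over the 9 members, and by -0.41 (MTPAP) to 0.32 (POLRMT) without BAQ12 replicate 3. Over all libraries, the intervals of these differences were narrowest for LRPPRC (-0.29 to 0.13) and TFAM (-0.22 to 0.24) and widest for TEFM (-0.48 to 0.95). On leaving out that library, TEFM turned from 0.23 to -0.27, SLIRP moved from -0.01 to -0.27 (unadjusted p = 0.0049, adjusted p = 0.095 by limma) and LRPPRC from -0.08 to -0.21 (unadjusted p = 0.022, adjusted p = 0.20 by limma). PNPT1 was higher in every BAQ13 library than in every BAQ12 library (so were 6.02% of all tested genes), by 0.11 log2 units, with an interval of -0.13 to 0.34, and by 0.05 without BAQ12 replicate 3.

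BAQ12O and BAQ12 differed in TEFM by 0.70 log2 units (95% confidence interval -0.02 to 1.41, adjusted p = 0.61 by limma), but by 0.19 without BAQ12 replicate 3, when POLRMT had the highest difference of the members, at 0.29. For PNPT1 the difference was 0.00 (interval -0.23 to 0.24), and -0.05 without that library. Between BAQ13 and Lys05, SLIRP and TEFM were lower in every BAQ13 library, as were 11.5% of all tested genes, SLIRP at -0.27 (interval -0.60 to 0.05, adjusted p = 0.46 by limma). Without BAQ12 replicate 3 the adjusted p of SLIRP in this pair was 0.030 by limma, where 7.76% of all genes passed. Every BAQ12O library was below every Lys05 library for TFAM and SLIRP, as for 9.19% of all tested genes, each at -0.15, with adjusted p-values of 0.82 and 0.88 by limma. All BAQ12O libraries lay above all BAQ13 libraries for TEFM and ELAC2, as for 9.34% of all tested genes, by 0.46 and 0.20 (adjusted p = 0.68 and 0.56 by limma).

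**Figure D4:**
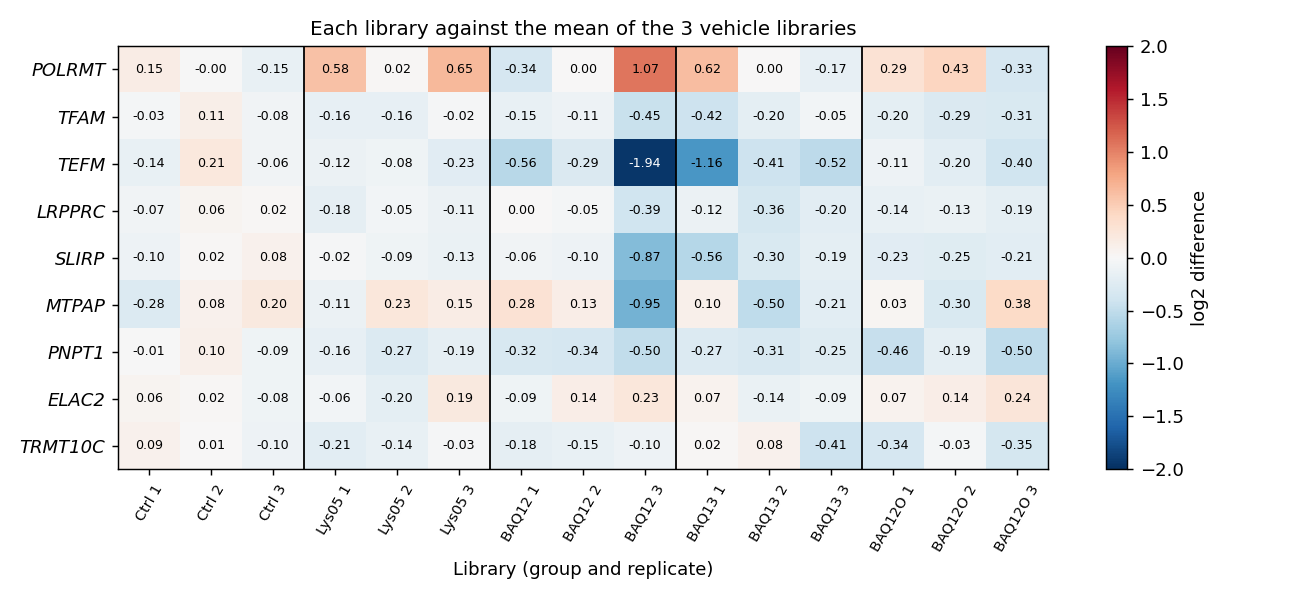
Log2 difference of each of the 15 libraries (horizontal axis) from the mean of the 3 vehicle libraries for the 9 tested members (vertical axis), with blue for lower, red for higher and the value written in each cell. The BAQ12 replicate 3 column holds the extreme values of POLRMT (1.07), TEFM (-1.94), SLIRP (-0.87) and MTPAP (-0.95), and the PNPT1 row is blue in all 12 treated libraries.

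The spread within BAQ12 came mostly from replicate 3 for TEFM, POLRMT, MTPAP and SLIRP. Against the mean of the other BAQ12 libraries, that library differed by -1.51 log2 units in TEFM, 1.24 in POLRMT, -1.16 in MTPAP and -0.79 in SLIRP. Of all tested genes, 3.01%, 6.83%, 8.19% and 20.9% lay as far out in that library as these 4 members. PNPT1, TFAM, LRPPRC, ELAC2 and TRMT10C differed there by 0.06 to 0.37 log2 units in size, and 52.5% to 91.4% of all tested genes lay as far out. That library had 1754599 reads on genes, and 20.6% of them were mitochondrially encoded, against 15.8% to 20.4% in the other libraries. What set the library apart was not tested. BAQ13 replicate 1 was the BAQ13 library farthest from the vehicle mean in TEFM (-1.16 log2 units), SLIRP (-0.56), TFAM (-0.42) and POLRMT (0.62). Replicates 2 and 3 were at -0.41 and -0.52 in TEFM, -0.30 and -0.19 in SLIRP, and -0.20 and -0.05 in TFAM. In POLRMT they were at 0.002 and -0.17. Part of the BAQ13 differences of these members thus rests on that library. In LRPPRC, MTPAP, PNPT1, ELAC2 and TRMT10C another BAQ13 library was farther.

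Among all pairs of tested members, TEFM and SLIRP had the highest Pearson r across the 15 libraries, at 0.92. It was 0.79 over the 14 libraries without BAQ12 replicate 3. TFAM and SLIRP came next, with an r of 0.81 and 0.76. The lowest r over the 15 libraries was -0.65, for POLRMT and SLIRP. For deviations from the group means, TEFM and SLIRP had an r of 0.93, so that their likeness was also present within groups. For PNPT1 and TEFM, the members with the smallest F test p-values over the 15 libraries, the most similar genes were also sought among all those tested. Among the genes most like PNPT1 were PSMC3IP (r = 0.88) and SLC7A5 (0.87), and TEFM was most like GANAB (0.97), MRPL22 (0.95) and TM2D1 (0.95). Without BAQ12 replicate 3 these correlations were 0.85 for both genes named beside PNPT1 and 0.86 to 0.91 for those beside TEFM. These are descriptions over libraries that share their group, depth and normalisation.

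In the wider set of nuclear genes for mitochondrial RNA and DNA, 1 gene passed the test. This set held 69 other tested genes, also chosen by function with earlier results of these data known. Of the 69, 0 passed with Lys05, BAQ12 or BAQ12O by limma, edgeR or DESeq2. At an unadjusted p under 0.05 there were 1, 8 and 9 by limma, 1, 7 and 10 by edgeR, and 1, 5 and 6 by DESeq2. The limma counts stand beside 4.98%, 11.8% and 12.8% of all tested genes at that level. With BAQ13, 1 of the 69 passed by each of the 3 tools, below the 5.77% of all genes that passed by limma, and 12 (limma), 12 (edgeR) and 9 (DESeq2) had an unadjusted p under 0.05, against 19.4% of all genes by limma. The gene that passed was PPARGC1B, a coactivator of mitochondrial gene expression. The median log2 differences of the 69 were -0.05, -0.12, -0.10 and -0.13 with Lys05, BAQ12, BAQ13 and BAQ12O. Below 0 were 42, 46, 48 and 47 of them, and above 0 were 27, 23, 21 and 22. Of all tested genes, 50.4%, 49.8%, 49.5% and 49.5% were above 0. These counts over the 69 were not tested. By role, the transcription genes other than the members (6 tested, among them the MTERF family) had medians of -0.06, -0.25, -0.10 and -0.21. The 11 genes of RNA end processing had medians of -0.14, -0.28, -0.25 and -0.16, and the 5 of RNA decay -0.06, 0.02, 0.02 and -0.09. The 26 genes of tRNA and rRNA modification lay at -0.05, -0.12, -0.12 and -0.12, the 12 of mitochondrial DNA replication and maintenance at 0.01, -0.07, -0.09 and -0.11, and the 3 matrix proteases at 0.08, 0.06, -0.04 and -0.04.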

How the data were processed

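The authors deposited a normalised signal for every gene of each library, made from its read count and a size factor per library. The submitters' processing notes name STAR, HTSeq, DESeq2 and GRCh38/hg38, without versions. For library preparation, a stranded paired-end kit is given in the study's methods but a 3′-end kit in the labels, which the values do not resolve. With a 3′-end kit, counts would not depend on gene length. All non-zero values were whole multiples of 1 step per library (100% within 0.01 read), and the whole reads were recovered from it.

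Members and lists were chosen with earlier results of these data known. limma 3.58.1 (eBayes with trend, R 4.3.3) was fitted to log2(value + 1) over the 15 libraries, without covariates, for the 10495 of 60107 genes passing edgeR's filterByExpr on the recovered reads (minimum count 10, minimum total 15). The added 1 can understate fold changes of genes with few reads, but not in every case. POLRMT with Lys05 was at 0.42 by limma and at 0.45 by edgeR and by DESeq2. TEFM with BAQ12 was at -0.93 by limma, -0.72 by edgeR and -0.75 by DESeq2. p-values were adjusted by Benjamini-Hochberg within each of 10 comparisons. Mitochondrially encoded RNAs are given as the sum of the 12 heavy-strand mRNAs, tested as an added row of the fit, MT-ND6 and the 2 rRNAs. All members were named, as was every gene of the other nuclear lists with an adjusted p-value under 0.05 against vehicle, and for the members with the smallest F test p-values the 3 most correlated genes, of which 1 is not reported here. Scripts were tested on simulated reads, in which 200 of 10495 genes were changed 1.3-fold or 2-fold between BAQ13 and vehicle. limma and edgeR each recovered 54% of the 2-fold and 3% of the 1.3-fold changes, and DESeq2 66.7% and 4.65%. Most changes of 1.3-fold thus went uncalled there, and the absence of calls does not show that the members were unchanged. Alternatives were edgeR 4.0.16 and DESeq2 1.42.0 on the recovered reads, TMM factors, scaling to nuclear reads, pseudocounts of 0.1 and 5, no filter, at least 10 reads in every library, the 6 libraries of a pair alone, the replicate number as a block, and leaving out each library. Coordinates are from GENCODE 29 (GRCh38).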

Additional observations from a re-analysis of the deposited data

How the results depend on the processing

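The number of members past the adjusted threshold was 0 in every comparison as reported, and it moved in 6 of 274 alternative values. In the fit of only the 6 libraries compared it was 1 with BAQ13 (SLIRP) and 3 with BAQ12O (TFAM, SLIRP and PNPT1). In these fits, 9.02% and 8.30% of all tested genes passed. Leaving out each library in turn gave 0 to 2 with BAQ13 and 0 to 1 with BAQ12O. It gave 0 to 1 between BAQ13 and Lys05 and 0 to 1 in the F test over 5 groups. All of the non-zero values were those without BAQ12 replicate 3, where 13.7%, 4.99%, 7.76% and 10.5% of all genes passed in that order. The member in the F test was SLIRP (adjusted p = 0.017 by limma). The counts over all genes changed with the same choices. In the fits of 6 libraries, 115, 31, 947 and 871 genes passed with Lys05, BAQ12, BAQ13 and BAQ12O, against 25, 103, 606 and 155 as reported, and without 1 library there were 19 to 51, 56 to 137, 320 to 1441 and 75 to 524. Both choices change the estimate of the spread.

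Of 896 alternative log2 fold changes of single members, 879 kept their sign and side of the threshold, 7 passed it newly, and 10 turned their sign, all on leaving out a library. Their ranges over the libraries left out were -0.17 (without BAQ12 replicate 3) to 0.54 for POLRMT and -0.41 to 0.21 (without BAQ12 replicate 3) for MTPAP with BAQ12. With Lys05 they were -0.049 (without vehicle replicate 1) to 0.19 for MTPAP and -0.13 to 0.066 (without Lys05 replicate 2) for ELAC2, which was at 0.0078 without vehicle replicate 1. With BAQ13 they were -0.082 (without BAQ13 replicate 1) to 0.31 for POLRMT and -0.19 to 0.051 (without BAQ13 replicate 3) for TRMT10C. With BAQ12O they were -0.023 (without BAQ12O replicate 2) to 0.36 for POLRMT and -0.13 (without BAQ12O replicate 3) to 0.21 for MTPAP, which was at -0.10 without vehicle replicate 1. The heavy-strand sums passed in all 18 alternatives of each comparison, MT-ND6 in 23 to 25 of 25 and MT-RNR1 in 23 or 24 of 25, which were added after the data were seen. MT-RNR1 did not pass with no filter (adjusted p of 0.0889 to 0.101 by limma) or, with BAQ12, in the fit of 6 libraries (by limma, adjusted p = 0.181).

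With the replicate number as a block, 0 members passed in any comparison, and 21, 77, 512 and 119 of all genes did with Lys05, BAQ12, BAQ13 and BAQ12O. Deviations of same-numbered libraries from their group means correlated at -0.49 to 0.20 over 30 pairs, 4 of them over 0.1. These correlations do not settle whether the numbers pair the libraries, which the labels do not say. Genes with few reads, TFB2M, TEFM, POLRMT and MTPAP, had the least precise values.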

Other observations

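Among the regulators of mitochondrial biogenesis, which lie upstream of these factors, the mean of PPARGC1B was higher with every agent. Its normalised counts were 26.9 ± 4.43 (SD, n = 3) with vehicle, 33.6 ± 1.78 (SD, n = 3) with Lys05, 44.3 ± 8.25 (SD, n = 3) with BAQ12, 46.1 ± 1.27 (SD, n = 3) with BAQ13, and with BAQ12O 39.2 ± 3.54 (SD, n = 3). Every treated library lay above every vehicle library, as for 1.66% of all tested genes. The log2 difference of PPARGC1B passed with BAQ13 (0.77, standard error 0.18, adjusted p = 0.014 by limma) and not with Lys05 (0.32), BAQ12 (0.69) or BAQ12O (0.54), at adjusted p-values of 1.0, 0.083 and 0.17 by limma. Without vehicle replicate 3 or BAQ13 replicate 1, the adjusted p with BAQ13 was 0.0841 and 0.0535 by limma, and it passed in 23 of 25 alternatives, at values of 0.64 to 0.87. These alternatives were chosen after its values were seen.

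Its relative PPARGC1A had 0 reads in every library. NRF1 had 3 to 19 reads per library. GABPA had mean normalised counts of 40.2 to 42.8 in the 5 groups. GABPB1, the partner of GABPA, had 90.8 ± 6.32 (SD, n = 3) with vehicle and 68.4 ± 3.90 (SD, n = 3) with Lys05, a log2 difference of -0.40 with an adjusted p of 0.51 by limma. None of the 6 tested regulators passed as lower with any agent. The lowest log2 differences among the 6, not necessarily those of GABPB1, were -0.45, -0.41 and -0.35 with BAQ12, BAQ13 and BAQ12O.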
